A study of Mus musculus with 60 samples.

Results

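Axon guidance ligands and receptors are the cues and cell-surface receptors that steer growing axons. Their H3K27me3 was followed at 73 protein-coding genes of 21866 in GENCODE M21. The genes were chosen by symbol: ephrins (Efna, Efnb) and Eph receptors (Epha, Ephb), semaphorins of classes 3 to 7, plexins, neuropilins, Slits and Robos, netrins, Unc5 receptors and Dcc. The symbol rule also took in Unc50 and Unc5cl, which are not guidance receptors, so that 71 genes encode guidance proteins, with 37 ligands and 34 receptors. The mark was mapped by CUT&RUN (an antibody tethers a nuclease that cuts out the bound chromatin) in mouse embryonic stem cells of the B6129S6F1 background and in cultures under a protocol that directs them to anterior neural progenitors. Wild-type (WT) lines, lines homozygous for the Tet1 tm1Koh allele (KO) and lines with a catalytically inactive TET1 (MUT) were collected at day 0, 2, 3 and 5. A further set was collected at day 5 after 5 µM XAV, an inhibitor of Wnt signalling, had been present since day 2 (day 5 + XAV). All cells were depleted of feeders before plating and were given bFGF until day 3, controls included.

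Each genotype had 2 cell lines at each of the 5 time points, which made 30 libraries from 8 lines. WT70 and WT72 were used throughout. KO15 was paired with KO25 at days 0 and 2 and with KO1 from day 3, and CM59 with CM40 and then CM69. The change of the second KO and MUT line between day 2 and day 3 cannot be told apart from the time in those lines. Each MUT line is 1 clone made by Cas9 and homology-directed repair. The study describes KO cultures without XAV as entering mesoderm and endoderm rather than the neural lineage. It describes MUT cultures without XAV as mostly neural at day 5, with some mesoderm and endoderm. With XAV from day 2 it describes forebrain cells in WT, KO and MUT. In cultures without XAV after day 2, genotype and cell type therefore cannot be told apart. The free text of the KO25 samples named WT70, while their titles and cell line fields named KO25, which was followed. The Tet1 promoter had a peak in 0 libraries, so the mark itself gave no check of the genotype.

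H3K27me3 is laid down by Polycomb repressive complex 2, preferentially at CpG-rich promoters of developmental genes that are silent or poised. Ephrins bind Eph receptors on neighbouring cells, secreted and membrane-bound semaphorins signal through plexins and neuropilins, Slits repel axons through Robos, and netrins attract them through DCC or repel them through Unc5 receptors. Many genes that are used only once neurons form are targets of Polycomb in stem cells. The promoter window reached 1.5 kb up- and downstream of every annotated start, and a promoter was called in a library when a peak covered at least 1 bp of the window. Cells were profiled in bulk, so a mark in fewer cells and less mark per cell cannot be told apart.

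A peak covered the promoter in at least 1 library for 49 of the 73 genes (67.1%), against 16.4% of all protein-coding genes. Of these 49 genes, 8 were called in all 30 libraries, 41 in some of them, and 24 genes were never called. As examples from these classes, and not as a comparison of them, the sequences before the start sites of 7 genes are shown. They are the 250 bases upstream of the 5′ end of each gene in GRCm38.p6 (mm10), written 5′ to 3′ on the gene's strand, with each CpG in capitals. Across all genes the median number of CpGs in such a stretch was 8, with quartiles of 3 and 17. Ntn3 (chr17:24209532-24209781, minus strand) and Epha10 (chr4:124880649-124880898, plus strand) had the largest surplus of called libraries in KO over WT after day 2, and they hold 9 and 7 CpGs.
Ntn3: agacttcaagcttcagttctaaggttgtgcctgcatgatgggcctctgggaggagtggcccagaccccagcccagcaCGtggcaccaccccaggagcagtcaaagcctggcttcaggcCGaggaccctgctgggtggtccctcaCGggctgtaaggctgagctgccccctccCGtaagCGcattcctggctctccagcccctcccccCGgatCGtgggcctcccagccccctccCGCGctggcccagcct
Epha10: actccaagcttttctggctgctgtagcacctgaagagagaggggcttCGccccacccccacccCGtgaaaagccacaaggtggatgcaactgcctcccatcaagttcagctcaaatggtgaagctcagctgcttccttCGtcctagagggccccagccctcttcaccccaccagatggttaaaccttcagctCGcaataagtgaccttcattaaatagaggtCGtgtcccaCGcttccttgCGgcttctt
Nrp2 (chr1:62703035-62703284, plus strand, 31 CpGs) and Ntn1 (chr11:68400824-68401073, minus strand, 6 CpGs) were called in all libraries and had the largest median peak widths of such genes with no exon in this stretch.
Nrp2: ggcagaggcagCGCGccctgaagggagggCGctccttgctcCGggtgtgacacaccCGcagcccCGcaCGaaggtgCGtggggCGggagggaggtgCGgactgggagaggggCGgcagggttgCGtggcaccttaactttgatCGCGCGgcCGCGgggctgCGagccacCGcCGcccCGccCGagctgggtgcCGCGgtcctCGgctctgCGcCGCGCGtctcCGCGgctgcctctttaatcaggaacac
Ntn1: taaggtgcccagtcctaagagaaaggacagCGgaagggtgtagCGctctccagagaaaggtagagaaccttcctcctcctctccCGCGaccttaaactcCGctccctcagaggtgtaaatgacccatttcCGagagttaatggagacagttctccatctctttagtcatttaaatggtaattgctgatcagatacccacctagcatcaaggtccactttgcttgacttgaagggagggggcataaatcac
Plxnb3 (chrX:73756840-73757089, plus strand) and Sema3g (chr14:31217610-31217859, plus strand) were never called and had the lowest CpG ratios of the genes without a call, by the same filter on exons, with 1 and 8 CpGs in these stretches.
Plxnb3: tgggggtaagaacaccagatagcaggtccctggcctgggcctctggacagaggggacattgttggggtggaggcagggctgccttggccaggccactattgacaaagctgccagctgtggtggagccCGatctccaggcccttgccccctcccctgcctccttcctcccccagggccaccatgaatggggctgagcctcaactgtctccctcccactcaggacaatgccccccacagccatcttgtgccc
Sema3g: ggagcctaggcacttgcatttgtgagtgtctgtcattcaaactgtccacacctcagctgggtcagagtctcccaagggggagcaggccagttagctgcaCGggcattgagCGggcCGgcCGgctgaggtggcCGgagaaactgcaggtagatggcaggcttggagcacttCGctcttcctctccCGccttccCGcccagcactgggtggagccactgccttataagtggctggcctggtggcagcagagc
Epha2 (chr4:141300990-141301239, plus strand, 10 CpGs) is shown because of its calls under XAV, and was chosen after its values were seen.
Epha2: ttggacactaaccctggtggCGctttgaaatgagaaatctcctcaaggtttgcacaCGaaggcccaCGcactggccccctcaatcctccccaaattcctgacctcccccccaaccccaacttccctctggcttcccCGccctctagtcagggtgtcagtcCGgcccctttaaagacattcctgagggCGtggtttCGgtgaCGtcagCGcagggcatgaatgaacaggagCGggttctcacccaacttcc

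Calls varied widely between families. Among ligands, all 3 Slits, both class 5 semaphorins, all 4 class 6 semaphorins and Sema7a were called at least once, against 2 of 7 secreted class 3 semaphorins and 3 of 6 class 4 semaphorins. For the ephrins, 3 of 5 ephrin-A genes and 2 of 3 ephrin-B genes were called, and for the netrins 3 of 4, together with both netrin-G genes. Among receptors, the 4 Unc5 genes, both neuropilins and Dcc were all called at least once, as were 7 of 9 EphA, 3 of 5 EphB, 5 of 9 plexin and 2 of 4 Robo genes. Ligands (25 of 37, 67.6%) and receptors (24 of 34, 70.6%) had similar shares. Most genes without a call lay far from any peak. The exceptions were Sema3g, with a peak 832 bp outside the promoter window in the nearest library, and the Eph receptor gene Epha1, with a peak at 3999 bp. The 4 Unc5 receptors and 4 class 6 semaphorins were each called in some libraries, but none of them in all 30.

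The 24 genes without a call had a median CpG observed over expected ratio of 0.384 in the 3 kb around the 5′ end, against 0.557 for the 41 genes called in some libraries and 0.605 for the 8 called in all. Across all genes the same 3 classes had medians of 0.372, 0.504 and 0.599, so the order was shared with the rest of the genome. Of the 17 guidance genes with a ratio under 0.4, 4 were ever called, whereas 22 of the 24 with a ratio from 0.6 to 0.8 were. Among all genes these ranges had 8.50% and 24.1% of promoters called at least once, respectively, both lower than among guidance genes. Plxna2, a plexin that pairs with neuropilins, was the called gene with the lowest ratio (0.236), called in 11 libraries.

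**Figure D1:**
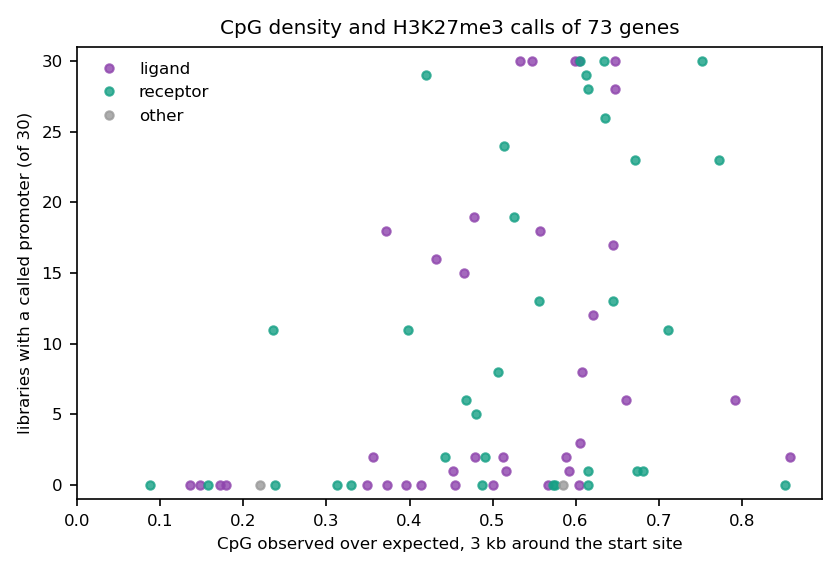
Libraries with a called promoter (of 30, y axis) against the CpG observed over expected ratio in the 3 kb around the 5′ end (x axis) for each of the 73 genes, coloured by role. Genes without a call lie along the bottom with a median of 0.384, and the 8 genes called in all 30 libraries have ratios of 0.533 to 0.752.

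The 8 genes called in all libraries were the ligands Efna3, Ntn1, Ntng2, Sema7a and Slit2 and the receptors Nrp2, Plxna4 and Plxnd1. Netrin-1 is the attractant of commissural axons, netrin-G2 is a membrane-anchored relative, SLIT2 is a ligand of Robo receptors, NRP2 and plexin A4 receive class 3 semaphorins, and plexin D1 receives SEMA3E. Ntn1 had the tallest of its peaks in CM40 at day 2 (height of 162) and the widest in WT70 at day 2 (25.6 kb), against a median width of 7.41 kb. Median widths were 4.87 kb for Plxnd1, 4.88 kb for Slit2, 6.17 kb for Efna3, 6.62 kb for Plxna4, 7.08 kb for Sema7a, 7.98 kb for Ntng2 and 8.28 kb for Nrp2. Peak height is the maximum of the authors' unscaled signal. Ranked within its own library, Plxna4 had the strongest peaks, taller than a median of 84.4% of the peaks of a library, and Sema7a the weakest, with 37.6%. Nrp1, the other neuropilin gene, and Robo3, a Robo that governs midline crossing, were each called in 29 libraries. Ntn4 and Unc5d were called in 28.

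Several peaks covered only some of a gene's start sites. Slit2, Plxnd1 and Unc5a were called at their 5′ start sites and in 0 libraries at internal ones 255363, 25579 and 47128 bp downstream. Sema6d, a class 6 semaphorin, was called in 19 libraries at its 5′ start site and in 5 at a group of starts 520327 bp downstream. Epha10 showed the opposite order, with 11 libraries at a start 4900 bp downstream and 6 at its 5′ end, so the sequence printed above lies before the less often marked start. The peak of Ntn3 also reached the promoter of its neighbour Tbc1d24 in all 18 libraries in which Ntn3 was called, so calls of this pair cannot be told apart. No other called gene shared a promoter peak with a further protein-coding gene.

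**Figure D2:**
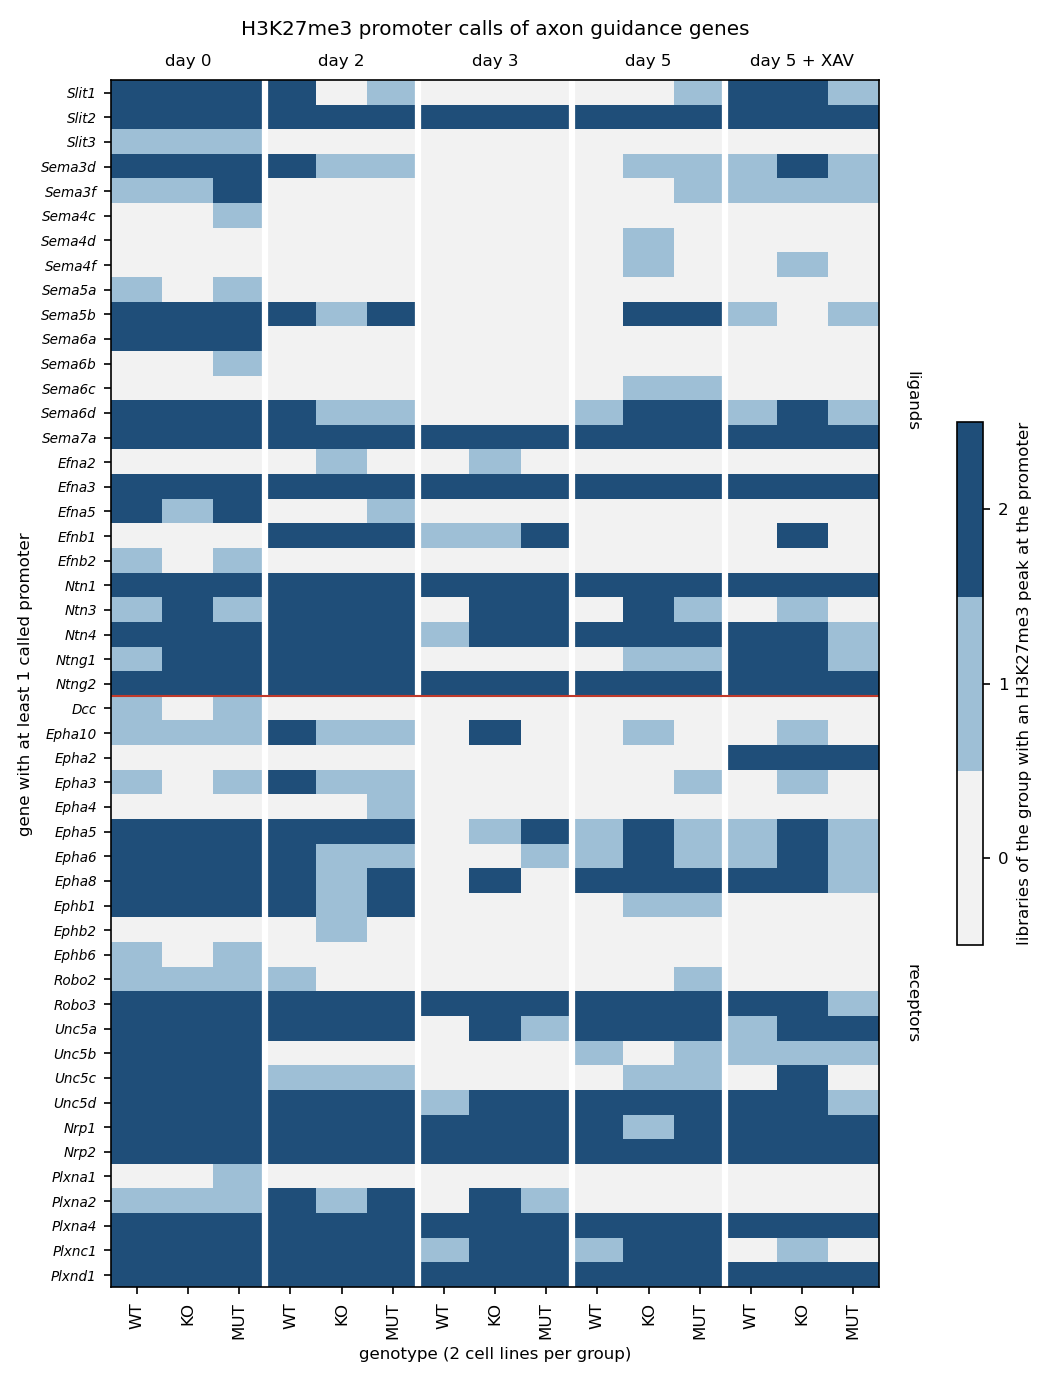
Number of libraries per group (0, 1 or 2 cell lines) with an H3K27me3 peak at the promoter, for the 49 guidance genes called at least once (rows, ligands above the red line and receptors below) in the 15 groups (columns, by time point and genotype). The rows of Slit2, Sema7a, Efna3, Ntn1, Ntng2, Nrp2, Plxna4 and Plxnd1 are filled throughout, Epha2 is filled at day 5 + XAV alone, and 8 rows filled at day 0 are empty at day 3.

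The number of guidance genes called per library ranged from 10 in WT70 at day 3 to 41 in CM40 at day 0, and moved with the number of peaks, which ranged from 704 to 3466. CM59 at day 5 + XAV, with 704 peaks and 11 guidance genes called, stood lowest in peaks. Of 5 stem cell markers, Nanog and Zfp42 were never called, and Sox2 was called in 2 libraries, both KO at day 5 without XAV. Pou5f1 and Klf4 were each called in 0 of 6 libraries at day 0 and 5 of 6 at day 5. Of 7 neural progenitor markers, Pax6, Six3, Lhx2 and Lhx5 were called in all 30 libraries, Sox1 in 29 and Hesx1 in 0. Otx2 was called in 6 of 6 at day 0 and 1 of 6 at day 5, a KO library. Of 6 mesoderm and endoderm markers, T, Eomes, Sox17, Foxa2 and Gata4 were called in all 30 libraries and Mixl1 in 18, with 4 of 6 WT, 3 of 6 KO and 5 of 6 MUT libraries after day 2. Most markers of both lineages thus had a peak in every library, and the calls of these markers did not separate the lineages. The few day 5 calls of Sox2 and Otx2 without XAV were in KO alone, with no test. None of 10 housekeeping genes was called.

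The comparison of time points asked how the mark at guidance genes changed over the differentiation, whatever cells each genotype had formed by day 5. At day 0, WT70 and WT72 had 26 and 38 guidance genes called, KO15 and KO25 had 27 and 33, and CM40 and CM59 had 41 and 28. At day 5, WT70 and WT72 had 15 and 18, KO1 and KO15 had 19 and 28, and CM59 and CM69 had 30 and 17. The mean over libraries was 32.2 ± 6.24 (SD, n = 6) at day 0 and 21.2 ± 6.24 (SD, n = 6) at day 5, a difference of -11 averaged over genotypes, with overlapping ranges. For all promoters the ratio of day 5 to day 0 was 0.811, and for guidance genes it was 0.658. Numbers of peaks moved in the same direction, from a mean of 2486 to 1926, and when the same number of peaks (704, by total signal) was taken from every library the difference was -0.5 genes. Those are also the strongest peaks. With the higher-signal part of each library's own peaks (50%, by height) the difference was -11.7. The part of peak number in this difference was otherwise not tested.

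The lowest counts were at day 3, with a mean of 16.3 ± 3.93 (SD, n = 6). Of the 25 guidance genes called in all 6 day 0 libraries, 8 (32.0%) were called in 0 of the 6 day 3 libraries, against 124 of 1083 (11.4%) of all genes called throughout day 0. They were the ligand genes Slit1, Sema3d, Sema5b, Sema6a and Sema6d and the receptor genes Ephb1, Unc5b and Unc5c. Most were called again later: Sema6d in 5 of 6 libraries at day 5, Sema5b in 4, and Sema3d, Ephb1, Unc5b and Unc5c in 2. Slit1 was called in 1 library at day 5 and in 5 at day 5 + XAV. Sema6a was called in 0 libraries at any later time point. No class 3, 4, 5 or 6 semaphorin was called in any day 3 library. The day 0 libraries had means of 1.67 ± 0.516 class 3, 1.33 ± 0.516 class 5 and 2.17 ± 0.408 class 6 genes (SD, n = 6). For class 4 the day 0 mean was already 0.167 ± 0.408 (SD, n = 6). Over all genes the mean number of promoters called was 1924 at day 0 and 1180 at day 3.

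An exact conditional test of each promoter, stratified by genotype, compared day 5 with day 0. It called 0 of 2967 promoters after Benjamini-Hochberg adjustment (0% at adjusted p under 0.05), and 6.07% had an unadjusted p under 0.05. With 2 lines per group the test cannot go below 0.00926, so that a promoter could pass the adjustment only if many did. Of the 39 guidance genes tested, 25 were called in fewer libraries at day 5, 1 in more and 13 in as many, with a median difference of -33.3 percentage points, against 0 points over all promoters tested. Sema6a, a transmembrane semaphorin, was called in 6 of 6 libraries at day 0 and 0 of 6 at day 5 (exact p = 0.00926, adjusted p = 0.392). Efna5, a membrane-anchored ephrin that repels retinal axons, was called in 5 and 0 (exact p = 0.0278, adjusted p = 0.458). Slit1, a repellent ligand of Robos, was called in 6 and 1 (exact p = 0.0278, adjusted p = 0.458). With lines as the replicate block, the 4 lines present at both days could not reach an exact p under 0.125, which was the value for Sema6a. With 704 peaks per library these 3 genes were called in 0 libraries and could not be compared.

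**Figure D3:**
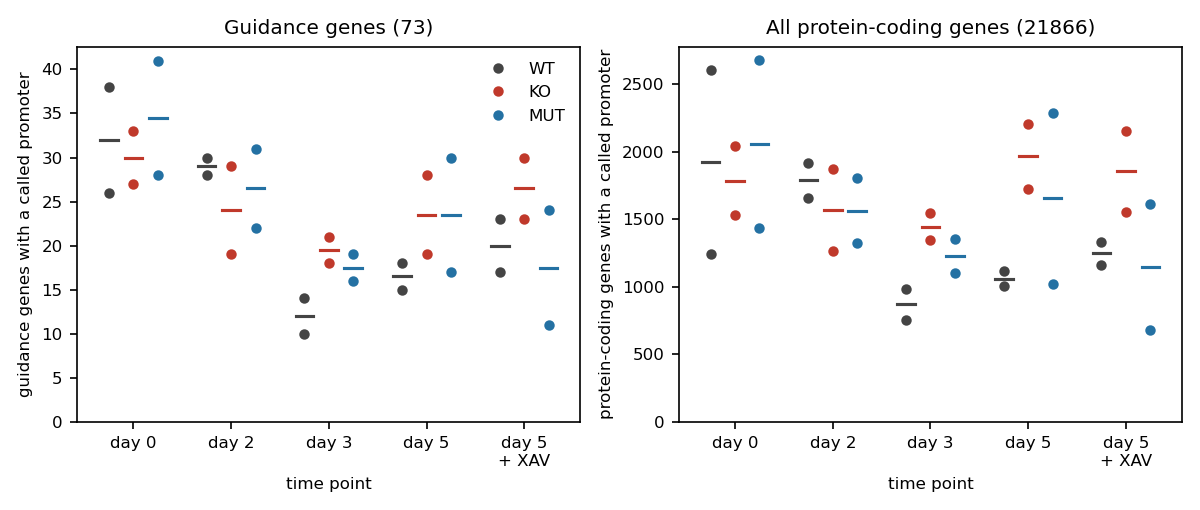
Number of guidance genes (left, of 73) and of all protein-coding genes (right, of 21866) with a called promoter in each library, by time point and genotype. Points are single cell lines and bars are means of the 2 lines of a group. The means are lower at day 3 than at day 0 in both panels, and after day 2 the KO points lie above the WT points at the same time point, except for 23 guidance genes in both WT72 and KO1 at day 5 + XAV.

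KO and WT were compared to ask how the mark differs in cultures without Tet1. As above, the cell types of these cultures differ too after day 2 when XAV is absent. At days 0 and 2 the KO libraries had 27 ± 5.89 guidance genes called and the WT libraries 30.5 ± 5.26 (SD, n = 4 each), within the spread between lines. After day 2 they had 23.2 ± 4.88 and 16.2 ± 4.36 (SD, n = 6 each), a difference of 7 genes with overlapping ranges of 18 to 30 and 10 to 23. By line, WT70 and WT72 had 10 and 14 genes at day 3, 15 and 18 at day 5 and 17 and 23 at day 5 + XAV. KO1 and KO15 had 21 and 18, 19 and 28, and 23 and 30 at the same time points. Receptors went from 8.67 ± 2.34 in WT to 12.5 ± 2.17 in KO, and ligands from 7.50 ± 2.43 to 10.7 ± 2.88 (SD, n = 6 each). Over all promoters the ratio of KO to WT was 1.66, larger than the 1.43 of the guidance genes. After day 2 KO libraries had 1729 to 2738 peaks and WT libraries 969 to 1717, and with 704 peaks from every library the difference reversed to -2.17 genes. With the higher 50% of each library's own peaks it was 6 genes. The part of peak number in the surplus was otherwise not tested.

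By the exact test stratified by time point, 0 of 2857 promoters passed adjustment over all time points (0%; 4.1% at unadjusted p under 0.05) and 0 of 2229 after day 2 (0%; 7.99%). Libraries of the same line at different time points were counted as separate units. Of the 31 guidance genes tested after day 2, 17 were called in more KO than WT libraries, 2 in fewer and 12 in as many. Their median difference was 16.7 percentage points, against 33.3 over all promoters tested. Ntn3, a netrin, was the guidance gene with the lowest p. Peaks were present in 9 of 10 KO libraries and in 3 of 10 from WT, with an exact p of 0.0139 and an adjusted p of 0.844. After day 2 these were 5 of 6 and 0 of 6, with an exact p of 0.0278 and an adjusted p of 0.348. Without a peak were WT70 at day 0 and both WT lines at day 3, day 5 and day 5 + XAV, whereas of the KO libraries only KO1 at day 5 + XAV lacked one. Where called in KO after day 2, the Ntn3 peak was 3.69 to 5.39 kb wide with heights of 19 to 34, and it lay mostly downstream of the start. Epha10, an Eph receptor without kinase activity, was marked in 4 of 6 KO libraries and in 0 of 6 from WT over the same days (exact p = 0.0833, BH-adjusted p = 0.495). This difference of 66.7 percentage points was 33.3 with 1 start site per gene. It was 33.3 without KO15 and 100 without KO1, so it rested mainly on KO15. With 704 peaks per library Ntn3 was called in 0 and Epha10 in 3 of all 30 libraries, too few to compare after day 2. Unc5a, a repulsive netrin receptor, was called in 6 and 3 (exact p = 0.167, adjusted p = 0.602), and Epha5, a receptor of ephrin-A ligands, in 9 of 10 and 6 of 10 over all time points (exact p = 0.250, adjusted p = 1).

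At single time points, a gene called in both KO lines and neither WT line was counted, with no test. At day 3 there were 5 such guidance genes, Epha8, Epha10, Ntn3, Plxna2 and Unc5a, against 1.71% of all promoters and 11.8% of promoters called in at least 2 libraries. As a share of the 43 guidance genes called in at least 2 libraries these were 11.6%, close to the background. At day 5 there were 2, Ntn3 and Sema5b (4.65% of the 43, background 2.84% and 19.6%), and at day 5 + XAV 2, Efnb1 and Unc5c (4.65%, background 1.23% and 8.46%). At day 0 there was none (background 0.0366%) and at day 2 none (background 0.0777%). The opposite pattern, both WT lines and neither KO line, was met once, by Slit1 at day 2 (background 0.343%), and by no guidance gene at day 0 (0.0777%), day 3 (0.0137%), day 5 (0.0503%) or day 5 + XAV (0.0366%). Ntn3 was the guidance gene separated at more than 1 time point.

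**Figure D4:**
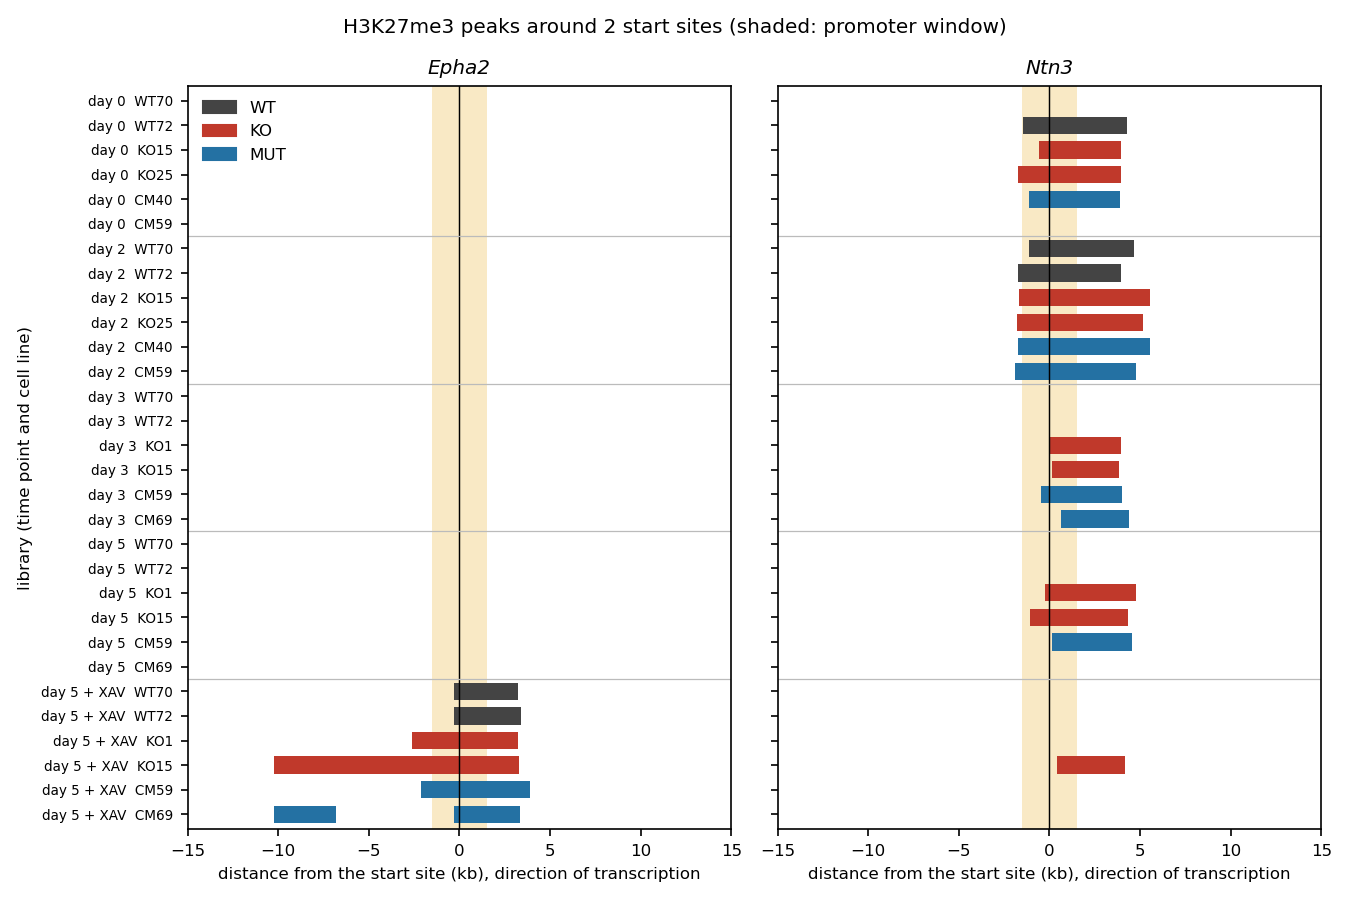
H3K27me3 peaks within 15 kb of the start sites of Epha2 (left) and Ntn3 (right) in each of the 30 libraries (rows), as distance in kb along the direction of transcription, with the promoter window shaded and bars coloured by genotype. Epha2 has peaks in the 6 libraries of day 5 + XAV and in no other row, and Ntn3 has peaks in the KO and MUT rows of day 3 and in no WT row after day 2.

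MUT libraries were compared with WT and KO libraries to ask what the catalytic activity of TET1 contributes. After day 2 the MUT libraries had 19.5 ± 6.66 guidance genes called (SD, n = 6), with a range of 11 to 30 and a difference from WT of 3.33 genes. Without CM59 at day 5 + XAV this difference was 5.50. With 704 peaks from every library it was 0.333, and with the higher 50% of each library's own peaks 4.17. The ratio of MUT to WT was 1.27 over all promoters and 1.21 for the guidance genes. The exact test called 0 of 2896 promoters against WT (0%; 0.449% at unadjusted p under 0.05) and 0 of 2952 for KO against MUT (0%; 0.542%). Of the 40 guidance genes tested against WT, 12 were called in more MUT libraries, 4 in fewer and 24 in as many. Over all promoters tested, 39.7% were called in more MUT libraries and 16.4% in fewer. Ntn3 was called in 6 of 10 MUT and 3 of 10 WT libraries (exact p = 0.278, adjusted p = 1), so MUT lay between WT and KO, with KO against MUT at an exact p of 0.250. Plxnc1, a receptor of SEMA7A, was called in 8 and 6, and Sema5b, a semaphorin with thrombospondin repeats, in 7 and 5 (exact p = 0.500 for each). Epha10 had a peak in 2 of 10 MUT libraries against 6 of 10 in KO, at an exact p of 0.211 and an adjusted p of 1, and with 704 peaks per library, where it was called in 3 of all 30 libraries, the KO minus MUT difference was -10 percentage points, with no test. The next was Efna2, an ephrin-A, with 0 and 2 (exact p = 0.500, adjusted p = 1). Both MUT lines and neither WT line were called for Epha5 and Ntn3 at day 3 (background 0.75%) and for Sema5b at day 5 (background 0.38%). Of the 43 guidance genes called in at least 2 libraries these were 4.65% and 2.33%, against 5.16% and 2.61% of all such promoters.

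XAV was compared with its absence at day 5 to ask how Wnt inhibition affects the mark. By the study's description above, cell types also change with XAV in KO and in part in MUT. There XAV and cell type cannot be told apart. The mean number of guidance genes called was 21.3 ± 6.53 with and 21.2 ± 6.24 without XAV (SD, n = 6 each). All 4 WT and KO lines had 2 to 5 more genes called with XAV, and CM69 had 24 against 17, whereas CM59 had 11 against 30. The difference was 0.167 genes, and 2.33 without CM59 at day 5 + XAV. The exact test, stratified by genotype, called 0 of 2348 promoters (0%; 0.383% at unadjusted p under 0.05).

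Epha2, a receptor of ephrin-A ligands that is also used in epithelia and the early embryo, was called in all 6 libraries with XAV and in 0 of 6 without (exact p = 0.00926, the smallest this design can give, adjusted p = 1). It was called in 0 of the 18 libraries of days 0, 2 and 3. The heights of its peaks were 38 in WT70, 30 in WT72, 40 in KO1, 39 in KO15, 33 in CM59 and 42 in CM69. These values are not scaled for library size. In the same order, the median heights of promoters called in all 30 libraries were 42, 34, 60, 62, 39 and 45. Relative to these medians the peaks of the KO lines were the lowest, with no test. Each peak covered the start site and ended 3.24 to 3.90 kb downstream. The upstream edge lay at -0.297 and -0.301 kb from the start in the WT lines and at -10.2 kb in KO15, while CM69 had a separate peak from -10.2 to -6.80 kb. In the other 24 libraries the nearest peak was at least 49.6 kb from the promoter window. With lines as the replicate block the exact p was 0.0312 (adjusted p = 1). When 704 peaks were taken from every library, Epha2 was called in 2 libraries, a difference of 33.3 percentage points in place of 100. Among all protein-coding genes, the other gene called in these 6 libraries alone was Spry4, an inhibitor of receptor tyrosine kinase signalling, named after its values were seen.

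Plxnc1 was called in 1 of 6 libraries with and 5 of 6 without XAV (exact p = 0.0833, adjusted p = 1), and Slit1 in 5 and 1 (exact p = 0.120, adjusted p = 1). With 704 peaks per library Plxnc1 was called in 1 and Slit1 in 0 of all 30 libraries, too few to compare. Slit1 was thus called in all libraries at day 0, in none at day 3, and at day 5 mostly with XAV. Of the 33 guidance genes tested, 8 were called in more libraries with XAV, 11 in fewer and 14 in as many, against 19.9% more and 40.4% fewer over all promoters tested.

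At the promoters called in all 30 libraries, peak height could be compared. There were 439 such promoters, 8 of them of guidance genes. Heights are given as log2 values relative to the median of these promoters in the same library, and were tested with limma across the 439 promoters with Benjamini-Hochberg adjustment. With XAV, 11.8% of the 439 promoters were called, 27 higher and 25 lower, and 3 of the 8 guidance genes were called, all higher.

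Plxna4 had relative heights without XAV of -0.49 and -0.82 in the WT lines, -0.14 and -0.15 in the KO lines and -0.20 and 0.06 in CM59 and CM69. With XAV they were 0.28 and -0.13, 0.36 and 0.20, and 0.11 and 0.15, higher in all 6 lines. The difference was 0.45 (SE 0.10, limma adjusted p = 0.00477). Sema7a, which encodes the membrane-anchored semaphorin, went from -0.32 and -0.65 to -0.39 and -0.09 in WT, from -1.07 and -0.98 to -0.38 and -0.31 in KO, and from -0.70 and -0.79 to -0.43 and -0.49 in MUT. It was higher in 5 of 6 lines, with a difference of 0.40 (SE 0.09, limma adjusted p = 0.00606), and the call was lost in 3 of 12 alternatives, without WT72 among them (0.30, limma adjusted p = 0.1). Slit2 went from -0.43 and -0.65 to -0.35 and -0.09 in WT, from -0.39 and -0.46 to 0.12 and -0.20 in KO, and from -0.03 and -0.51 to -0.20 and 0.00 in MUT, also higher in 5 of 6 lines. Its difference was 0.29 (SE 0.09, limma adjusted p = 0.0340), and the call was lost in 5 of 12 alternatives, which included leaving out WT72, KO1, KO15 or CM69 (0.18 to 0.33). The median difference of the 8 guidance genes was 0.15, against -0.01 over the 439 promoters.

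From day 0 to day 5, 30.1% of the promoters were called, 70 higher and 62 lower, and 4 of the 8 guidance genes were called, all lower. Ntng2 fell by 0.47 on the log2 scale (SE 0.08, limma adjusted p = 5.58e-05). Its relative heights were 0.03 to 0.34 in the 6 day 0 libraries and -0.43 to -0.10 in the 6 day 5 libraries, without overlap, and it was called lower under all 12 alternatives. Plxna4 (-0.37, SE 0.10, limma adjusted p = 0.00626), Plxnd1 (-0.32, SE 0.11, limma adjusted p = 0.0206) and Nrp2 (-0.25, SE 0.08, limma adjusted p = 0.0186) fell as well on average over genotypes. Each of these calls was lost in 4 or 5 of 12 alternatives. Without CM59 none of the 3 passed (limma adjusted p = 0.0711, 0.115 and 0.121, in that order). On average over genotypes, Plxna4 thus fell from day 0 to day 5 without XAV and was higher with XAV at day 5. Both comparisons share the day 5 libraries without XAV, so they are not independent. With XAV at day 5 the group means of Plxna4 were 0.07 in WT, 0.28 in KO and 0.13 in MUT. From day 0 to day 5 without XAV its group means went from 0.09 to -0.65 in WT and from 0.22 to -0.15 in KO. In MUT they were -0.07 at both days. Those of Nrp2 went from 0.06 to -0.29 in WT, from -0.14 to -0.66 in KO and from -0.10 to 0.01 in MUT. The Plxnd1 means were lower at day 5 in WT, KO and MUT. Ntn1 did not pass, at 0.19 (limma adjusted p = 0.0555). Its relative heights were -0.84 to -0.70 at day 0, 0.00 to 0.28 at day 2, -0.13 to 0.24 at day 3 and -0.76 to -0.25 at day 5, so it was taller at days 2 and 3.

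**Figure D5:**
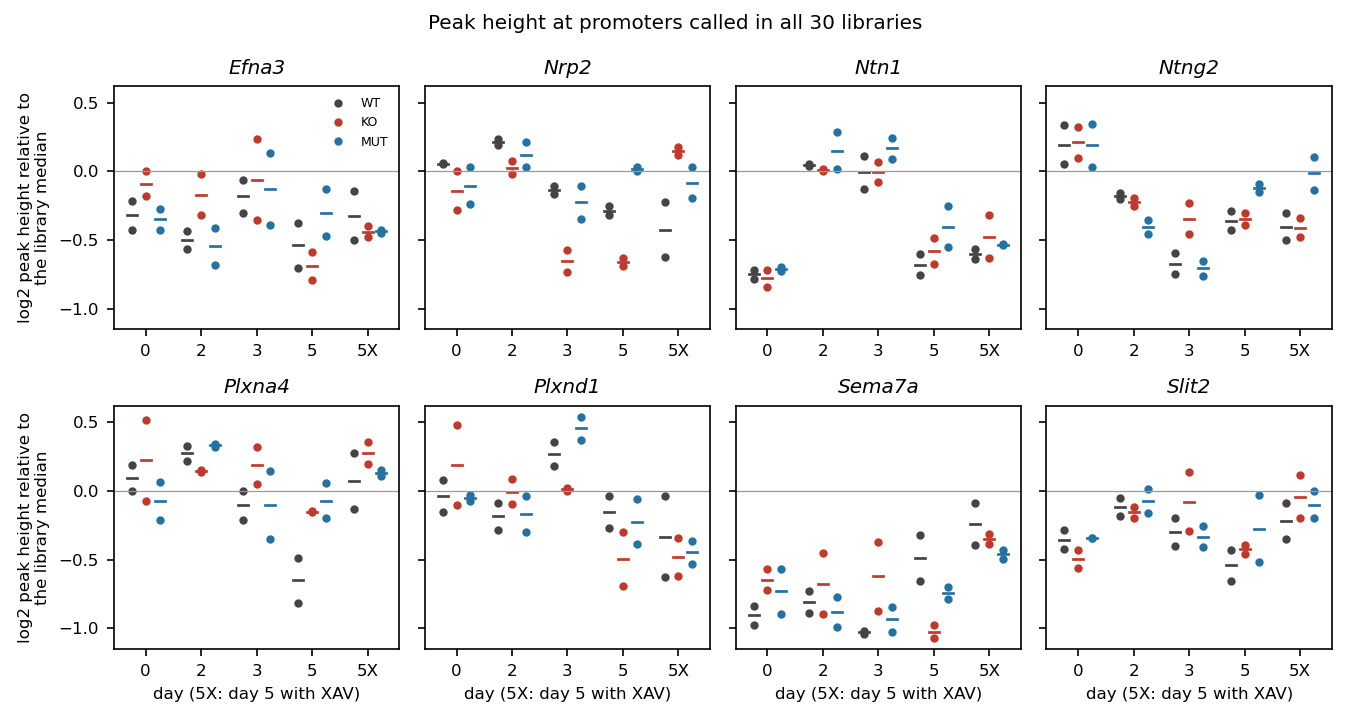
Peak height at the 8 guidance promoters called in all 30 libraries, as log2 relative to the library median of 439 promoters (y axis), by time point (x axis) and genotype. Points are cell lines and bars are means of 2 lines. Plxna4 is higher with XAV than without in all 6 lines, Ntng2 is lower at day 5 than at day 0 in all libraries, and Ntn1 stands higher at days 2 and 3 than at the other time points.

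Heights were also compared between genotypes. For KO minus WT, 0% of the 439 promoters were called at day 0 (0 in limma, 52 at an unadjusted p under 0.05) and 5.47% after day 2, with 0 guidance genes in either. The largest after day 2 was Plxna4, at 0.33 (SE 0.10, limma adjusted p = 0.0529), which passed in 5 of 12 alternatives, followed by Plxnd1 at -0.25 (adjusted p = 0.168) and Slit2 at 0.17 (adjusted p = 0.288). Scaling heights to the median of all peaks in place of the 439 promoters raised every KO minus WT value after day 2 by 0.29, with Plxnd1 then at 0.04. On that scaling 146 promoters were called for KO minus WT after day 2, 12 for XAV and 37 for day 5 minus day 0, so the order of the comparisons depends on the scaling. By limma at day 0 the lowest p belonged to Sema7a at 0.26 (adjusted p = 0.536), Nrp2 at -0.20 (adjusted p = 0.614) and Efna3 at 0.23 (adjusted p = 0.660). For MUT minus WT after day 2, 2.28% of promoters were called and 0 guidance genes by limma, with Ntng2 at 0.20 (adjusted p = 0.184), Nrp2 at 0.18 (adjusted p = 0.264) and Ntn1 at 0.17 (adjusted p = 0.284). For KO minus MUT, 0.683% were called and 0 guidance genes by limma, with Nrp2 at -0.29 (adjusted p = 0.0658), Plxnd1 at -0.25 (adjusted p = 0.295) and Ntn1 at -0.10 (adjusted p = 0.676).

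Other genes of the same pathways were followed in a pair of lists. Of 19 further cues and receptors, 15 were called at least once (Dscaml1 and Flrt2 in all 30 libraries), whereas of 34 cytoplasmic effectors of guidance receptors 8 were, and 0 in all libraries. These are 78.9% and 23.5%, against 16.4% of all genes. In both lists 0 genes passed the adjusted test in any comparison. After day 2 the cues and receptors had means of 3.17 ± 0.983 genes called in WT, 7.17 ± 1.47 in KO and 5.17 ± 2.71 in MUT, and the effectors 1.00 ± 1.10, 4.00 ± 1.26 and 2.67 ± 2.16 (SD, n = 6 each). Over all promoters the ratio of KO to WT was 1.66, and peak numbers differed as given above. Of the 9 cues and receptors tested after day 2, 7 were called in more KO than WT libraries and 0 in fewer, and of the 5 effectors 5 and 0, against 64.0% more and 3.86% fewer over all promoters tested.

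The authors' region lists, chosen on the KO and WT libraries of this series and so not independent of them, covered the promoters of 35 of the 73 genes. The list gained in KO at day 5 + XAV held 20, the gain-gain list 14, the loss-loss list 11 and the loss-gain list 4, with some promoters in more than 1 list. Of the 43 guidance genes called in at least 2 libraries, 81.4% were in a list, against 87.1% of all such promoters. By list, in the order above, these shares were 46.5%, 32.6%, 25.6% and 9.30%, against 55.6%, 39.7%, 20.6% and 20.9%. Ntn3 was in the gain-gain list and Epha2 in the loss-loss list. Epha2 was called in 0 libraries at day 0 in WT, KO and MUT alike, so the peaks show no loss in KO at that day.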

How the data were processed

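H3K27me3 and IgG CUT&RUN libraries were made from 8 cell lines. The authors used Trim Galore for trimming, Bowtie in local mode for alignment to GRCm38.p6 and Picard to drop duplicates. SEACR, in its stringent mode and with IgG as control, then gave 1 peak set per library. The SEACR version is not given in the sources used here. The deposited files hold, for each peak, its position and the total and highest signal, which are whole numbers not scaled for library size. Read depth is therefore unknown, and peak numbers stand in for it. IgG entered only through the authors' peak calling. The authors' region lists, made with DiffBind 3.0.15 from KO and WT, give positions only.

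Start sites came from GENCODE M21. Presence of a peak was compared by a two-sided exact conditional test within strata (time points or genotypes), with Benjamini-Hochberg adjustment, over promoters called in at least 2 of the libraries compared. Heights were compared as log2 values with limma 3.58.1 (R 4.3.3) over all 30 libraries, with genotype and time point as 1 factor. Tables used Python 3.11.15, numpy 2.4.6 and scipy 1.17.1, and plots matplotlib 3.10.9. Genes are named if called in all libraries, if past the thresholds, or if among the 3 lowest p of a test. Sequences follow a rule on width, CpG ratio and KO minus WT share, with stretches holding an exon or on chromosome 18 left out. The genes, the lists and the rule were chosen with earlier results of these data known.

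The lines are the replicates, and nothing in the labels names separate cultures of a line. The main tests count each library as a unit, although lines recur, so n = 6 after day 2 stands for 2 lines per genotype. Their p-values therefore do not measure the spread between lines alone. Lines recur by name across time points and so pair the samples. The within-line correlation of heights was 0.0099. Alternatives were a wider window, 500 bp of overlap, the higher 50% of a library's peaks, 704 peaks per library, 1 start site per gene, total signal, another scaling, a replicate block by line and leaving out each line.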

Additional observations from a re-analysis of the deposited data

Results flagged for a closer look

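The height of the Nrp2 peak responded to XAV differently in KO and WT, by an interaction term in limma. The response in KO minus that in WT was 0.95 on the log2 scale (limma adjusted p = 0.00534). Nrp2 went from -0.69 and -0.63 to 0.12 and 0.18 in KO1 and KO15, higher in both lines. In WT70 and WT72 it went from -0.32 and -0.25 to -0.22 and -0.63. As above, XAV and cell type cannot be told apart in KO. The adjusted p was 0.298 in limma with total signal, 0.149 with heights scaled to all peaks, 0.194 without WT72 and 0.0634 without KO1, and 0.00501 with the replicate block. Of 439 promoters, 18 passed for this term.

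The change of Sema7a from day 0 to day 5 also differed between KO and WT, by -0.80 (limma adjusted p = 0.0485). Sema7a went from -0.97 and -0.84 to -0.32 and -0.65 in WT70 and WT72. At day 0 it stood at -0.57 in KO15 and -0.72 in KO25, and at day 5 at -0.98 in KO15 and -1.07 in KO1, so the second KO line differed between the days. The adjusted p ranged from 0.0459 to 0.761 over the alternatives in limma. Of 439 promoters, 18 passed for this term too.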

How the results depend on the processing

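Taking the 704 highest-signal peaks of every library turned the difference in guidance genes called between KO and WT after day 2 to -2.17, moved that between day 5 and day 0 to -0.5, and turned Epha10 in KO against MUT to -10 percentage points. That choice keeps the strongest peaks and leaves 19 of the 49 guidance genes with any call, so it changes peak strength as well as number. Keeping the higher 50% of each library's own peaks gave 6 for KO minus WT and -11.7 for day 5 minus day 0. Read depth is unknown. The number of promoters of 439 whose height passed in limma was, with total signal, 7 for KO minus WT at day 0, 78 for KO minus WT, 33 for MUT minus WT and 22 for KO minus MUT after day 2, and 128 for XAV. With heights scaled to all peaks it was 146 for KO minus WT, 1 for MUT minus WT and 0 for KO minus MUT after day 2, 12 for XAV and 37 for day 5 minus day 0. Leaving out each line gave 0 to 2 promoters for KO minus WT at day 0, 11 to 29 for KO minus WT, 4 to 15 for MUT minus WT and 1 to 6 for KO minus MUT after day 2, 25 to 52 for XAV and 84 to 128 for day 5 minus day 0. The count for KO minus WT after day 2 was 12 without KO1 and 11 without WT72, that for XAV 25 without WT70 and 28 without CM59 or KO15, and that for day 5 minus day 0 was 84 without WT70. Leaving out only CM59 at day 5 + XAV, chosen after seeing the data, gave 34 for XAV. Directions reversed for Sema7a at day 0 (-0.0064) and Slit2 after day 2 (-0.19) in KO minus WT with total signal, and for Plxnd1 in KO minus WT (0.037) and Ntn1 in KO minus MUT (0.024) after day 2 with heights scaled to all peaks. That scaling moves all 439 promoters alike, by -0.10 for KO minus WT at day 0 and by 0.29, 0.17 and 0.12 for KO minus WT, MUT minus WT and KO minus MUT after day 2. The cause of the other changes was not tested.

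With the replicate block by cell line, the pairing gave 20 promoters for KO minus WT, 8 for MUT minus WT and 3 for KO minus MUT after day 2, 56 for XAV and 134 for day 5 minus day 0, and it changed no call of a guidance gene's height. No exact test called a promoter after adjustment under any alternative. The unadjusted p of Ntn3 in KO against WT after day 2 passed 0.05 in 4 of 9 alternatives.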
